A study of Mus musculus with 20 samples.

Results

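The endoplasmic reticulum (ER) chaperone and stress genes Hspa5, Hsp90b1, Calr, Pdia4, Manf and Xbp1 were followed across mouse kidney arrays that cross genotype (normal or Hyp) with diet (control or low in phosphate). All probe sets that the platform annotation gives to a single one of these genes were taken, which gave 1 probe set for each of the 6 genes, of 8251 genes on the array. Of the 6, 5 passed a filter on mean intensity (79.4 arbitrary units, the 30th percentile of all probe sets), as did 6433 genes in all. Calr, the calcium-binding lectin chaperone calreticulin, did not pass, with a mean of 20.0 over the 20 arrays (8.15th percentile), and is given by its values alone.

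The design asks what phosphate restriction changes in the kidney and whether the change depends on the Hyp mutation. Its 4 groups of 5 arrays were normal mice fed either the control or the low phosphate diet, and Hyp mice fed either of them. Every array carried total kidney RNA pooled from 3 mice of the C57BL/6J strain, and the labels give no age and no number of mutant alleles in the Hyp females. Arrays are called here by the number in their titles, 01 to 20. Hyp mice carry a mutation of Phex, an X-linked gene whose loss causes renal phosphate wasting, and a pool of whole kidney cannot tell fewer cells of a type from less RNA per cell. Arrays 01 to 10, 19 and 20 came from mice fed for 5 days (12 arrays) and arrays 11 to 18 from mice fed for 3 days (8 arrays). Arrays 05 to 08 and 15 to 18 were from females (8 arrays) and the other 12 from males. Runs of title numbers form 6 array sets: 01 to 04, 05 to 08, 09 and 10 (Hyp only), 11 to 14, 15 to 18, and 19 and 20 (normal only).

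Proteins that enter the ER are folded by chaperones and oxidoreductases, and unfolded protein there activates the sensors IRE1, PERK and ATF6, the unfolded protein response. IRE1 splices the Xbp1 message, and the spliced form encodes the transcription factor XBP1s, which with cleaved ATF6 raises chaperone genes. The renal proximal tubule, which takes up and degrades filtered protein and recovers phosphate, is rich in secretory and membrane traffic. Among the members, Hspa5 encodes BiP (GRP78), the ER HSP70 that also holds the sensors inactive. Hsp90b1 encodes GRP94, the ER HSP90; Pdia4 encodes ERp72, a protein disulfide isomerase; and Manf encodes a small secreted ER stress protein that binds BiP.

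The classical ER stress response element (ERSE) has the letters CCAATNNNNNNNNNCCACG and is known to bind NF-Y at its first letters and ATF6 at its last. RefSeq promoters (mouse build GRCm38.p6, 250 bases before to 50 after the start of transcription) were listed for 5 of the 6 members, all but Manf. On either strand, the ERSE letters were found in Hspa5 (1 match), Hsp90b1 (2 matches) and Calr (1 match), and in neither Pdia4 nor Xbp1. Over all 32851 listed promoters, 39 (0.119%) held a match. The promoters of the brightest members are shown because they carry it, 5′ to 3′ on the strand of the gene, with the ERSE matches in capitals; Hspa5 lies at chr2:34771840-34772139 on the plus strand and Hsp90b1 at chr10:86705395-86705694 on the minus strand.
Hspa5 promoter: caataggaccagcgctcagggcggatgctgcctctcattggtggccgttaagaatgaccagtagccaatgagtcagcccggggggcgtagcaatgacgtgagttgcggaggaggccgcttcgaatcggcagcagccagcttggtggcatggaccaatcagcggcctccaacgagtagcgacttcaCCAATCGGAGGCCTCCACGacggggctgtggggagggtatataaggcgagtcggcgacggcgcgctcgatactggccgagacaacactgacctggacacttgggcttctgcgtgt
Hsp90b1 promoter: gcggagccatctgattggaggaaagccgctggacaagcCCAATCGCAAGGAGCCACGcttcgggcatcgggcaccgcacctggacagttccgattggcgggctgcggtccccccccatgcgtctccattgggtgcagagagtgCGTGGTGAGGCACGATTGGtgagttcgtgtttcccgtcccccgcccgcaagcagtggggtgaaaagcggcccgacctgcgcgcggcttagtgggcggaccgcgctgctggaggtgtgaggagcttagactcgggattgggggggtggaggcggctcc
The Hspa5 match ran from base -65 to -47, on the strand of the gene. In Hsp90b1 the match from -212 to -194 was on the strand of the gene and the match from -107 to -89 on the opposite strand, where the printed capitals are the reverse complement. The Calr match, on the opposite strand from -162 to -144, is printed as it reads on the strand of the gene (chr8:84847075-84847093, minus strand).
Calr match: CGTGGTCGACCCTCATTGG
Each of these matches contains a CCAAT and a CCACG, letters that alone were present on either strand in 37.4% and 32.8% of promoters. The Pdia4 promoter held 3 CCAAT and 1 CCACG outside the ERSE spacing, and the Xbp1 promoter held neither. The letters ATTGGNCCACG (ERSE-II) occurred in 0.0365% of promoters and TGACGTGG (the core of the unfolded protein response element) in 0.676%, and in no member. The 39 promoters with the ERSE letters belonged to 37 genes, and beside the 3 members they included Canx, Pdia6, Dnajc3, Creld2, Derl3, Syvn1 and Ero1b, genes of ER folding and disposal that were picked out after the matches were seen.

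Averaged over genotypes Manf fell on the low phosphate diet, to 0.539 of its control-diet level. In normal mice the estimates for Manf, Hspa5, Hsp90b1 and Xbp1 were below 0 in every array set, and none of them passed the test on its own. Xbp1 passed the test for genotype, 1.28-fold higher in Hyp than in normal kidney averaged over diets. Pdia4 did not pass for diet, and its values split between arrays 01 to 10 and arrays 11 to 20. No member passed the test of a genotype by diet interaction. Fold changes come from log2(intensity + 37.7), which understates those of dim genes; the test is limma's moderated test with Benjamini-Hochberg adjustment over 8695 probe sets, with a threshold of 0.05, and ± on a log2 difference is its standard error.

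**Figure D1:**
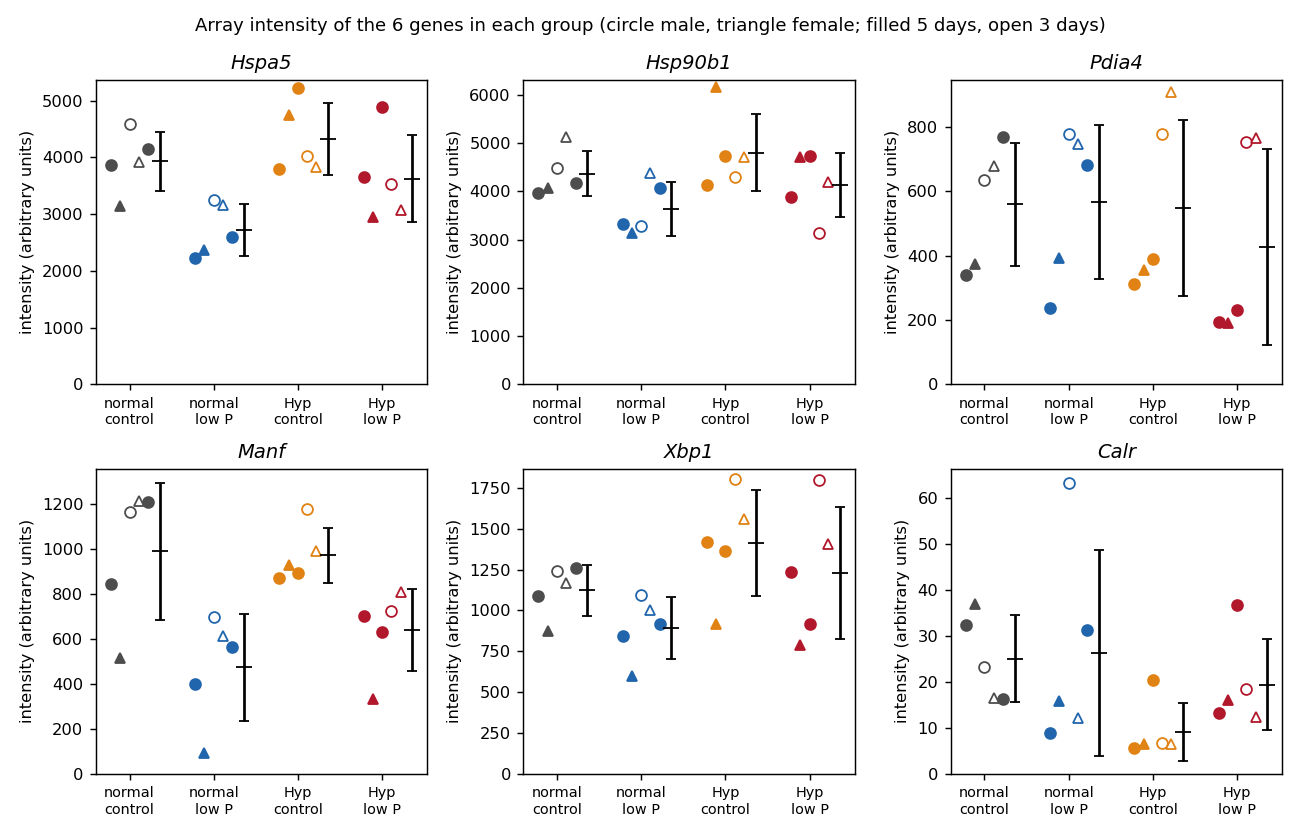
Array intensity (arbitrary units, linear axis from 0) of each of the 6 genes in the 4 groups; every point is 1 array (circles males, triangles females, filled 5 days, open 3 days) and the black bar is the mean ± SD of 5 arrays. Manf on low phosphate diet sits at 92.3 to 697 in normal mice and 334 to 807 in Hyp mice, Pdia4 falls into a high and a low cluster inside every group, and Calr stays at or below 63.2.

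Hspa5, the gene for BiP, was among the brighter probe sets on the array, with a mean of 3650 over the 20 arrays (96.7th percentile of mean intensity). In normal mice on control diet its intensity was 3871 in array 01, 3152 in 05, 4583 in 11, 3921 in 15 and 4145 in 19. The low phosphate arrays gave 2233 in array 02, 2369.7 in 06, 3247 in 12, 3154 in 16 and 2596 in 20. The low phosphate group was lower, with 3 of its 5 arrays below every control array and arrays 12 and 16 just above the lowest control array, 05. The means were 3934 ± 520 and 2720 ± 459 (SD, n = 5 each), a log2 difference of -0.53 ± 0.15 with a 95% interval of -0.84 to -0.22, which did not pass after adjustment (limma adjusted p = 0.23). In Hyp mice on control diet it was 3790.4 in array 03, 4753 in 07, 5219.7 in 09, 4031 in 13 and 3825 in 17. Low phosphate arrays read 3660 in array 04, 2951 in 08, 4887 in 10, 3533 in 14 and 3079.7 in 18. Of the low phosphate Hyp arrays 4 lay below every Hyp control array and array 10 lay above 4 of the 5. The difference in Hyp mice was -0.26 ± 0.15 (limma adjusted p = 0.998), with -0.16 without array 07, -0.11 in males only and -0.49 in females only. Averaged over genotypes it was -0.40 ± 0.10 (limma adjusted p = 0.14), and it passed without array 10 (-0.45, adjusted p = 0.0465) and blocked on array set (-0.40 ± 0.09, adjusted p = 0.036). Array 10 also stood apart in transcripts of liver: Alb was 13096.7 there and 1226 in array 08, against 90.3 to 944 in the other 18, and Apoa1 was 1706 and 549 against 27.9 to 107. The part of those transcripts in the Hspa5 value was not tested.

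Hsp90b1, the gene for GRP94, had a mean of 4233 over the 20 arrays (97.4th percentile). In normal mice it was 3957 in array 01, 4075 in 05, 4486.5 in 11, 5121 in 15 and 4164 in 19 on control diet. Under phosphate restriction it was 3323 in array 02, 3133 in 06, 3271 in 12, 4374.5 in 16 and 4062 in 20. The groups overlapped, with arrays 16 and 20 inside the control range and the other 3 below it. The means were 4361 ± 468 and 3633 ± 550 (SD, n = 5 each) and the log2 difference was -0.27 ± 0.13 (95% interval -0.54 to 0.01; limma adjusted p = 0.60). In Hyp mice it was 4120.3 in array 03, 6157 in 07, 4731 in 09, 4302 in 13 and 4706 in 17 on control diet. The restricted diet gave 3891 in array 04, 4718 in 08, 4738 in 10, 3142 in 14 and 4197 in 18. Arrays 04 and 14 lay below every Hyp control array and the rest overlapped, and the difference was -0.21 ± 0.13 (limma adjusted p = 0.998). It was -0.36 without arrays 08 and 10, the arrays with liver transcripts, -0.12 without array 07 and -0.14 without array 14, with no call.

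Manf had the largest diet difference of the members, and its intensity spanned 13.2-fold over the arrays. In normal mice on control diet it was 845 in array 01, 517 in 05, 1163 in 11, 1215 in 15 and 1208.5 in 19. Arrays of the low phosphate group gave 399.5 in array 02, 92.3 in 06, 697 in 12, 613 in 16 and 566 in 20. Arrays 02 and 06 lay below every control array, and the other 3 lay above control array 05 and below the other 4. The means were 990 ± 305 and 474 ± 239 (SD, n = 5 each), and the difference of -1.16 ± 0.24 (95% interval -1.66 to -0.66) fell just short of the threshold (limma adjusted p = 0.062). In Hyp mice on control diet it was 869.6 in array 03, 929 in 07, 891.5 in 09, 1176 in 13 and 991 in 17. With little phosphate in the diet it was 703 in array 04, 334 in 08, 630 in 10, 724 in 14 and 807 in 18. These groups did not overlap, a pattern that 0.426% of all probe sets tested showed in Hyp mice. No member's groups were fully apart for diet in normal mice (1.55% of all probe sets) or for genotype on control (0.771%) or low phosphate diet (0.828%). The means were 971 ± 123 and 639 ± 182 (SD, n = 5 each), with a difference of -0.62 ± 0.24 (95% interval -1.12 to -0.12; limma adjusted p = 0.998), which was -0.35 without array 07. Averaged over genotypes Manf fell by 0.89 ± 0.17 (95% interval -1.24 to -0.54; limma adjusted p = 0.019), and 10 of 10 pairs of arrays within a set were lower on low phosphate. That call was lost in fits without terms for sex and days (adjusted p = 0.32), of males only (-0.70, adjusted p = 0.19) or females only (-1.18, adjusted p = 0.67), without arrays 08 and 10 (-0.89, adjusted p = 0.073) and without array 14 (adjusted p = 0.052). In normal mice the difference passed in 6 of 14 other settings, among them a fit blocked on array set (adjusted p = 0.034), and without array 07, a Hyp array that enters only through the shared spread and terms.

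Array 06, with the lowest Manf, belongs to the set 05 to 08, which stood apart in correlation with the other arrays. The median Spearman correlation of these 4 arrays with the others was 0.895 to 0.934, against 0.943 to 0.969 for the rest. Their ratio of 3′ to 5′ actin signal was 1.74 to 2.61 against 1.22 to 1.98. For GAPDH that ratio was 1.07 to 1.52 against 0.87 to 1.19, and the ranges of both ratios overlapped. Without arrays 05 to 08 the averaged Manf difference was -0.68 ± 0.10 (limma adjusted p = 0.0078).

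Xbp1, the gene for the transcription factor downstream of IRE1, was given by 1 total per array with no share of the spliced form. In normal mice it was 1091 in array 01, 872 in 05, 1239 in 11, 1166 in 15 and 1258 in 19 on control diet. The low phosphate group read 846 in array 02, 599 in 06, 1096 in 12, 1006 in 16 and 914 in 20. Arrays 02 and 06 lay below every control array and the other 3 inside the control range. The difference was -0.34 ± 0.11 (95% interval -0.57 to -0.10; limma adjusted p = 0.33). In Hyp mice it was 1420.2 in array 03, 917 in 07, 1363 in 09, 1806 in 13 and 1559.8 in 17 with control food, and 1234 in array 04, 788 in 08, 914.5 in 10, 1799 in 14 and 1407 in 18 on low phosphate diet. In both Hyp groups the female 5-day array (07, 08) was the lowest and the male 3-day array (13, 14) the highest, and the diets overlapped, with a difference of -0.22 ± 0.11 (limma adjusted p = 0.998). Without arrays 08 and 10 that difference was -0.07.

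Pdia4, the gene for ERp72, was 339 in array 01, 375 in 05, 635 in 11, 678.5 in 15 and 769 in 19 in normal mice on control diet, and 239 in array 02, 391 in 06, 778 in 12, 746.5 in 16 and 681 in 20 on low phosphate diet. In Hyp mice it was 313 in array 03, 354 in 07, 391 in 09, 779 in 13 and 907 in 17 on control diet, and 194 in array 04, 192 in 08, 230 in 10, 754 in 14 and 764 in 18 on low phosphate diet. Arrays numbered 01 to 10 were low and those numbered 11 to 20 high in every group, and diet groups overlapped. The diet difference was -0.03 ± 0.26 in normal mice (95% interval -0.58 to 0.52; limma adjusted p = 0.99) and -0.47 ± 0.26 in Hyp mice (95% interval -1.02 to 0.09; limma adjusted p = 0.998). Both intervals contain falls of more than 0.5 on the log2 scale. They come from the fit without a block for array set, where the split by title number adds to the spread. Inside array sets the diet differences ran from -0.45 to 0.28 in normal mice and from -0.77 to -0.04 in Hyp mice.

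Calr was 32.3 in array 01, 37.0 in 05, 23.2 in 11, 16.4 in 15 and 16.3 in 19 in normal mice on control diet, and 8.9 in array 02, 15.9 in 06, 63.2 in 12, 12.2 in 16 and 31.3 in 20 on low phosphate diet. In Hyp mice it was 5.7 to 20.3 on control diet and 12.4 to 36.7 on low phosphate diet. All 20 values lay below the filter intensity of 79.4, and the groups overlapped in each comparison of diet or genotype. Calr has 1 probe set, and how well it reports the transcript was not tested, so these values do not give the abundance of Calr.

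As a group, 0 of the 5 tested members passed the limma test for diet in normal mice, where 0.184% of all 8695 probe sets did; at an unadjusted p under 0.05 there were 3 members (Manf, Hspa5 and Xbp1) and 745 probe sets. In Hyp mice 0 of 5 passed beside 0.15% of all, with 1 member (Manf) and 399 probe sets at an unadjusted p under 0.05. For diet averaged over genotypes 1 of 5 passed (Manf), beside 0.472% of all. All 5 estimates were negative in each genotype, with a median of -0.34 in normal mice (all probe sets 0.01, 47.7% negative) and -0.26 in Hyp mice (all probe sets 0.00, 48.8% negative). No member passed the interaction test, beside 0.046% of all, and none had an unadjusted p under 0.05, against 281 probe sets. The interaction was 0.54 ± 0.33 for Manf (95% interval -0.16 to 1.24), a smaller fall in Hyp mice as estimated, so equal falls and falls that differ by more than 1 log2 unit both lie inside it.

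Comparing arrays inside a set holds sex and days fixed and uses arrays with neighbouring title numbers. In normal mice the low phosphate array was the lower of the pair in 5 of 5 sets for Manf, Hspa5, Hsp90b1 and Xbp1, and in 2 of 5 for Pdia4, so 4 of 5 members were lower in every set where 7% of all probe sets were. Manf differences ran from -2.09 (arrays 05 and 06) to -0.71 (arrays 11 and 12) and those of Hspa5 from -0.78 to -0.31. In Hyp mice it was the lower in 5 of 5 sets for Manf, Hspa5, Xbp1 and Pdia4 and in 4 of 5 for Hsp90b1, again 4 of 5 members where 3.76% of all probe sets were lower in every set. Manf ran there from -1.38 (arrays 07 and 08) to -0.28. Over the 10 pairs together 3 of 5 members (Manf, Hspa5 and Xbp1) were always lower, beside 0.909% of all probe sets. Some of these differences were close to 0: Xbp1 differed by -0.00 between arrays 13 and 14, and Hspa5 by -0.05 between arrays 03 and 04.

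**Figure D2:**
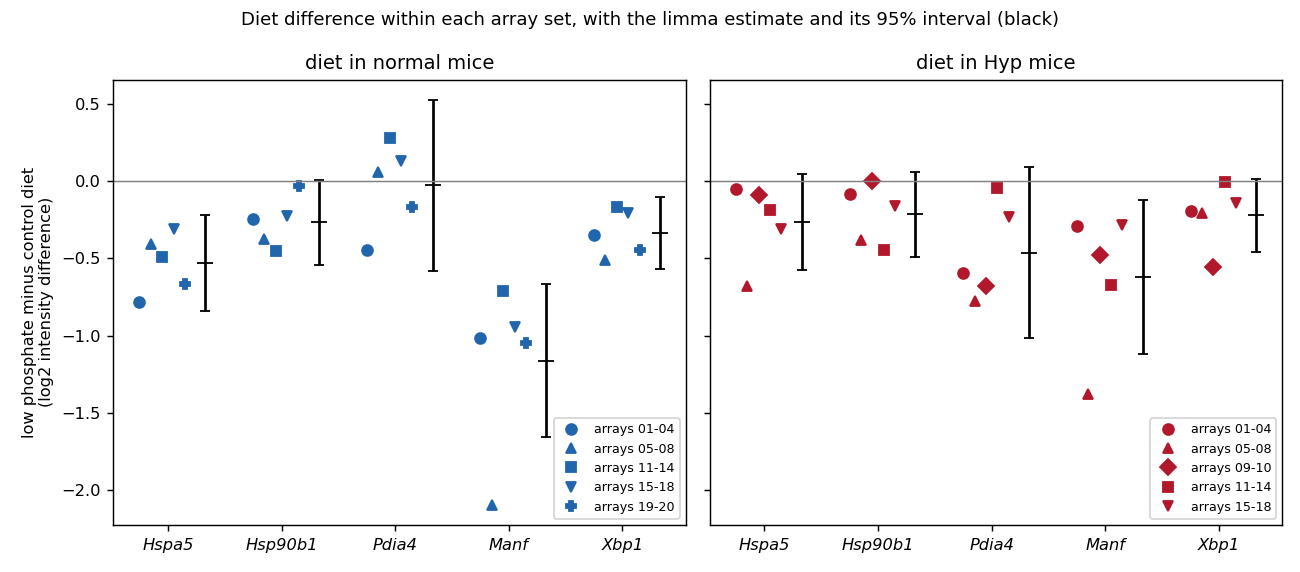
Log2 intensity difference, low phosphate minus control diet, inside each array set (coloured points, named by title number in the key) for the 5 tested genes in normal (left) and Hyp mice (right); black bars are the limma estimate with its 95% interval. All 5 Manf points lie below 0 in both genotypes, while Pdia4 in normal mice lies on both sides of 0.

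No member passed the test of a diet difference that changes with the days of feeding. The averaged diet difference of Manf was -0.65 ± 0.26 at 3 days and -1.05 ± 0.21 at 5 days (limma adjusted p = 1.00 and 0.12), and its change from 3 to 5 days was -0.40 (95% interval -1.12 to 0.33). For Hspa5 the values were -0.33 and -0.45, for Hsp90b1 -0.32 and -0.19, for Xbp1 -0.13 and -0.38, and for Pdia4 0.03 and -0.43. At 3 days 0 of 5 members passed beside 0.046% of all, at 5 days 0 of 5 beside 0.104%, and for the change between them 0 of 5 beside 0%. At an unadjusted p under 0.05 the limma fits held 3 members and 378 probe sets at 3 days, 3 members and 710 probe sets at 5 days, and 0 members and 275 probe sets for the change. At 5 days Manf passed in a fit blocked on array set (adjusted p = 0.048), with 2 other settings and without array 20.

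Between genotypes, Xbp1 was the member that passed. Its means were 1125 ± 156 in normal and 1413 ± 326 in Hyp mice on control diet, and under phosphate restriction 892 ± 189 and 1229 ± 403 (SD for 5 arrays in each group). On control diet 4 of 5 Hyp arrays lay above every normal array and on low phosphate diet 3 of 5, the exceptions being array 07 on control diet and arrays 08 and 10 on low phosphate diet, all 5-day arrays. The difference was 0.30 ± 0.11 on control diet (limma adjusted p = 0.51), 0.41 ± 0.11 on low phosphate diet (limma adjusted p = 0.18) and 0.36 ± 0.08 averaged over diets (95% interval 0.19 to 0.52; limma adjusted p = 0.032). In the 4 sets that hold both genotypes Xbp1 was higher in Hyp in 8 of 8 pairs, by 0.07 to 0.53 on control diet and 0.38 to 0.70 on low phosphate diet; 1.71% of all probe sets were higher in all 8. The call was lost when any of 14 of the 20 arrays was left out (01 to 04, 06, 09 and 11 to 18; adjusted p up to 0.074 with estimates from 0.32 to 0.36), without arrays 05 to 08 (0.39, adjusted p = 0.075), in males only (0.37, adjusted p = 0.31) and females only (0.33, adjusted p = 0.76) and without terms for sex and days (adjusted p = 0.74). Blocked on array set, the difference was 0.43 ± 0.08 (limma adjusted p = 0.012).

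The other members did not pass for genotype. Averaged over diets the differences were 0.27 for Hspa5 (limma adjusted p = 0.25), 0.16 for Hsp90b1, 0.30 for Manf and -0.30 for Pdia4, so 1 of 5 members passed beside 1.28% of all. Among 5-day males, Pdia4 was 230 to 391 in the set of Hyp arrays only and 681 to 769 in the set of normal arrays only. The unblocked Pdia4 values thus mix genotype with the split by title number. Blocked on array set, the Pdia4 difference was -0.08 ± 0.12 averaged over diets. It was 0.13 on control and -0.30 on low phosphate diet, against -0.08 and -0.52 without the block. On control diet 0 of 5 passed beside 0.253% of all, and on low phosphate diet 0 of 5 beside 0.357%, with 1 and 3 members at an unadjusted p under 0.05 (limma; 743 and 823 probe sets in all). Manf was close between genotypes on control diet (0.03, 95% interval -0.47 to 0.53), an estimate whose sign turned in males only (-0.12), without arrays 05 to 08 (-0.16) and with array weights (-0.05). The low phosphate arrays gave 0.57 ± 0.24 higher in Hyp (limma adjusted p = 0.47), with 0.27 without array 06, 0.33 without arrays 05 to 08, 0.32 in males only and 0.95 in females only. The order of group means was the same for Hspa5, Hsp90b1 and Xbp1 at the ends, with Hyp control highest and normal low phosphate lowest. For Hspa5 it ran 4324 ± 634, 3934 ± 520 (normal control), 3622 ± 767 (Hyp low phosphate) and 2720 ± 459, and each of the first 3 lay within 1 SD of its neighbour. Manf ran 990 ± 305 in normal control, 971 ± 123 in Hyp control, 639 ± 182 in Hyp low phosphate and 474 ± 239 in normal low phosphate, with the members of each pair of the same diet within 1 SD of each other. For Pdia4 the means ran from 567 ± 239 in normal low phosphate to 427 ± 304 in Hyp low phosphate, and none differed from the next by more than 1 SD.

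Across days on the diet, 3 of 5 members passed: Pdia4 fell by 1.08 ± 0.19 from 3 to 5 days (limma adjusted p = 5.9e-04), Manf by 0.75 ± 0.17 (adjusted p = 0.0031) and Xbp1 by 0.52 ± 0.08 (adjusted p = 2.7e-04). Of all probe sets 40.9% passed, so the members' share is read against a background where many genes differed. Among 24 other tested ER chaperones and folding enzymes, 11 passed as lower at 5 days and 4 as higher. Their median was -0.30, beside 0.01 over all probe sets. Mean intensity at 3 and 5 days was 755 ± 80.0 and 372 ± 181 for Pdia4, 923 ± 243 and 665 ± 306 for Manf and 1385 ± 311 and 1018 ± 252 for Xbp1 (SD, n = 8 and 12). Hspa5 (-0.09) and Hsp90b1 (0.03) were close between days, and the sign for Hsp90b1 turned with array weights (-0.02) and without arrays 08 and 10 (-0.03). Days and title number nearly coincide, since the 3-day arrays are 11 to 18 and only 19 and 20 of arrays 11 to 20 are 5-day arrays. The labels used here name no batch. Pdia4 split by title number, with 192 to 391 in arrays 01 to 10 and 635 to 907 in arrays 11 to 20. The ranges did not overlap, a split noticed in these values that 4.78% of all probe sets also showed. In normal males on control diet Pdia4 was 339 in the 5-day array 01, 769 in the 5-day array 19 and 635 in the 3-day array 11, and on low phosphate diet 239, 681 and 778 in arrays 02, 20 and 12. For Pdia4, arrays 19 and 20 were nearer to the 3-day arrays than to arrays 01 and 02. Manf gave 845, 1208.5 and 1163 in arrays 01, 19 and 11, and 399.5, 566 and 697 in arrays 02, 20 and 12. Xbp1 gave 1091, 1258 and 1239 on control diet and 846, 914 and 1096 on low phosphate diet. For both genes array 19 was above the 3-day array, and array 20 lay between the 5-day array 02 and the 3-day array 12. Apart from this pair, days and title number cannot be told apart.

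**Figure D3:**
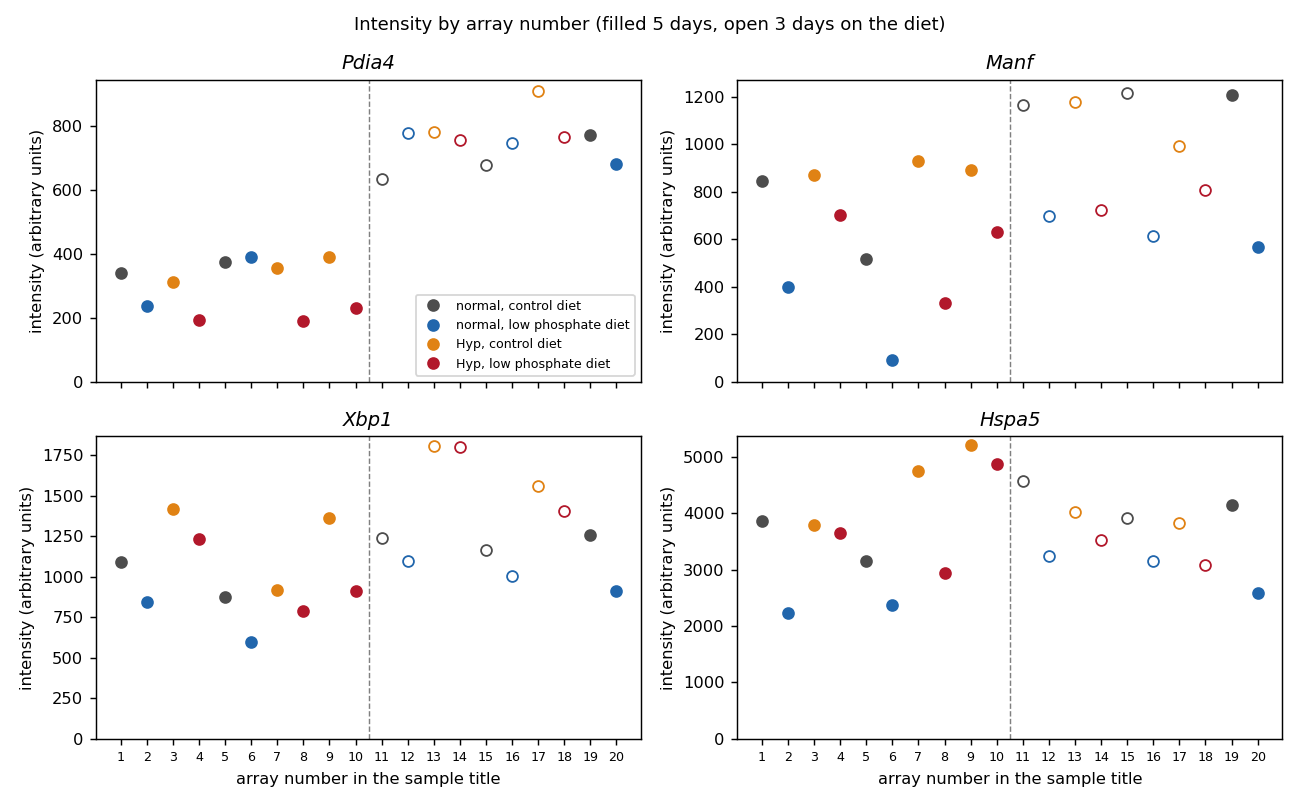
Intensity (arbitrary units, axis from 0) of Pdia4, Manf, Xbp1 and Hspa5 against the array number of the sample title, coloured by group, with filled points for 5 days and open points for 3 days; the dashed line parts arrays 10 and 11. Pdia4 steps from at most 391 to at least 635 at the line and stays high in arrays 19 and 20, while Hspa5 shows no step.

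Between sexes, 1 of 5 members passed beside 16.6% of all probe sets: Xbp1 was lower in females by -0.34 ± 0.08 (limma adjusted p = 0.011), with means of 1039 ± 321 in 8 female and 1248 ± 315 in 12 male arrays. Its means in females and males were 794 ± 140 and 1130 ± 221 at 5 days, and 1285 ± 247 and 1485 ± 371 at 3 days. No array set held both sexes, so a sex difference cannot be told from a difference between sets. All female 5-day arrays came from the set that stood apart in correlation. Manf was lower by -0.49 ± 0.17 (limma adjusted p = 0.061) and passed in 5 of 9 other settings and without array 07. Manf means in females and males were 468 ± 353 and 764 ± 247 at 5 days, but close at 3 days, with 907 ± 257 and 940 ± 265. Hspa5 (-0.16), Hsp90b1 (0.19) and Pdia4 (-0.04) did not pass, and the sign for Pdia4 turned with array weights (0.08).

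Within array sets, 3 members varied together. With each set's mean removed, Pearson's r of log2 intensity over the 20 arrays was 0.89 for Hspa5 and Manf, 0.85 for Hsp90b1 and Manf and 0.80 for Hspa5 and Hsp90b1. Xbp1 had r = 0.63 with Manf, 0.59 with Hspa5 and 0.37 with Hsp90b1. Pdia4 had r from -0.17 to 0.30 with the others. The 20 points share array sets, diet and genotype, and set 05 to 08 spreads most, so these values are descriptions. With no means removed, Hspa5 and Manf had r = 0.72 and Hsp90b1 and Xbp1 0.06.

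**Figure D4:**
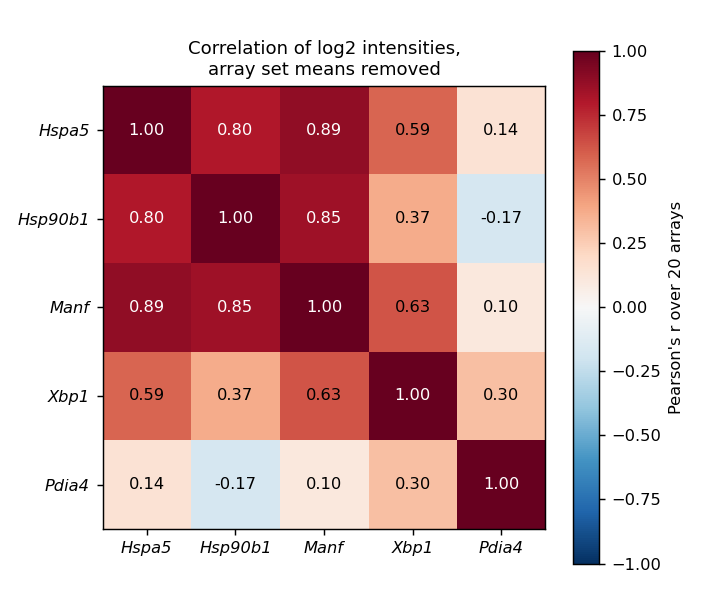
Pearson's r between the log2 intensities of the 5 tested genes over 20 arrays after each array set's mean was removed; red is positive and blue negative. Hspa5, Hsp90b1 and Manf form a block at 0.80 to 0.89, and Pdia4 lies between -0.17 and 0.30 with every other gene.

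The genes whose pattern was most like the mean of the 5 tested members, by Pearson's r over 20 arrays with set means removed, were Tnfaip8 (0.93), Snx3 (0.92), Keg1 (0.90), Hsph1 (0.90), Col5a2 (0.90), Selenot (0.89), Ces1d (0.88), Pdia6 (0.88), Cycs (0.88) and Cck (0.87). Hsph1 encodes a cytosolic HSP110 chaperone and Pdia6 an ER disulfide isomerase. Tnfaip8, Pdia6 and Cycs also ranked in the first 5 with no means removed (ranks 3, 2 and 4), whereas Snx3 ranked 1057. They were chosen for likeness to a mean of members whose diet estimates were all negative, so diet values for them are not independent of the members. Such values appear below for Hsph1 and Pdia6, which the gene lists also hold. Nearest to single members were Mrps25 for Hspa5 (0.92), Yipf5 for Hsp90b1 (0.91), Pdpk1 for Pdia4 (0.85), Cetn3 for Manf (0.94) and Ces1g for Xbp1 (0.90).

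In normal mice and averaged over genotypes, other genes of ER folding had smaller diet differences than Manf, and none passed. Of 24 other tested ER chaperones and folding enzymes 0 passed for diet averaged over genotypes, 18 were lower on low phosphate, and their median was -0.14 beside 0.01 over all probe sets. In normal mice 0 of 24 passed and 19 were lower; the smallest p-values belonged to Serpinh1, the collagen chaperone HSP47 (-0.53 ± 0.17, limma adjusted p = 0.31), Erp29 (-0.26 ± 0.09, adjusted p = 0.40) and Pdia5 (-0.30 ± 0.11, adjusted p = 0.44). Of 25 genes of the translocon and N-glycosylation 0 passed and 20 were lower in normal mice, with a median of -0.07. Of 20 cytosolic and mitochondrial heat shock genes 0 passed and 15 were lower, with a median of -0.13; Hsph1 gave -0.49 ± 0.12 (limma adjusted p = 0.16), Hspa4 -0.45 ± 0.13 and Hsp90aa1 -0.38 ± 0.15.

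In normal mice the sensors and the degradation genes were nearer to an even split of signs, and the PERK and ATF4 targets less so. Of 12 sensors and transcription factors of the unfolded protein response 0 passed and 6 were lower on low phosphate in normal mice (median -0.02), with Atf6 at -0.29 (limma adjusted p = 0.61) and Atf6b at -0.42 (adjusted p = 0.64). Averaged over genotypes 8 of these 12 were lower (median -0.01). Of 15 genes of ER-associated degradation 0 passed and 7 were lower (median 0.01), and Herpud1, a target of the response, gave 0.50 ± 0.19 in the higher direction (limma adjusted p = 0.42). Of 16 targets of PERK and ATF4 0 passed for diet and 11 were lower in normal mice (median -0.05). In Hyp mice 5 of these 16 were lower (median 0.06), and averaged over genotypes 7 were (median 0.04). Psat1, a serine synthesis enzyme in this list, passed for genotype, 0.60 ± 0.09 higher in Hyp averaged over diets (limma adjusted p = 0.0023), with means of 701 ± 80.4, 583 ± 53.3, 977 ± 200 and 1051 ± 319 in normal control, normal low phosphate, Hyp control and Hyp low phosphate (SD, n = 5 each). For genotype averaged over diets the other lists had 0 calls, and their medians lay between -0.03 and 0.02, beside 0.07 for the list with Psat1.

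**Figure D5:**
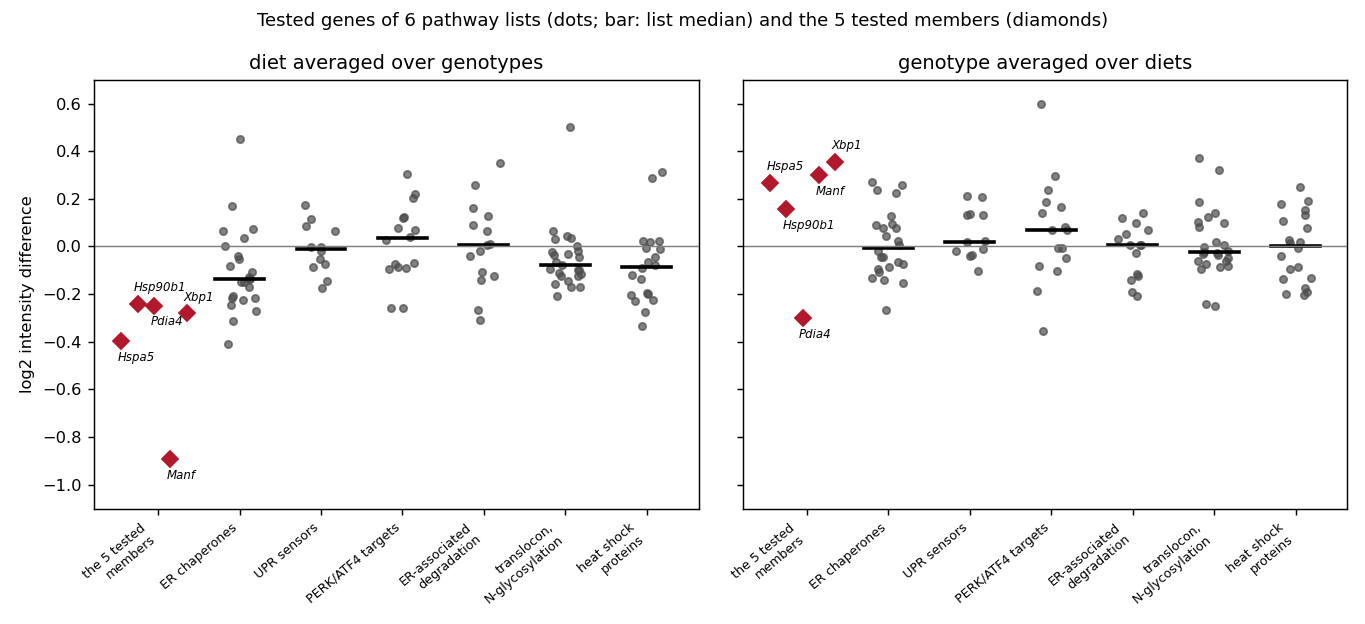
Log2 intensity difference of the 5 tested members (diamonds) and of the other tested genes of 6 lists (dots, with a bar at each list's median), for diet averaged over genotypes (left) and Hyp minus normal averaged over diets (right). Manf at -0.89 lies below every dot on the left, and the highest dot on the right is Psat1 at 0.60.

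Of the genes with the ERSE letters in their promoter, 8 others were tested. For diet averaged over genotypes 0 of 8 passed and 5 were lower, with a median of -0.05. Creld2, a disulfide isomerase of the ER, gave -0.24 ± 0.09 (limma adjusted p = 0.35), Pdia6 (its brightest probe set) -0.17 and Dnajc3 -0.14, while Canx gave 0.04. Another Pdia6 probe set, the one named above for likeness, gave -0.42 in normal and -0.38 in Hyp mice (limma adjusted p = 0.39 and 0.998). For genotype averaged over diets 0 of 8 passed and 8 were higher in Hyp, with a median of 0.08 beside 0.02 over all probe sets. Manf, the member with the largest diet difference, has no listed promoter, and Xbp1, which passed for genotype, held no match in the window printed for the others.

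The labelled tissue was checked on markers. All 12 listed proximal tubule genes on the array passed the filter, with summed intensities of 105016 to 130288 in the 4 groups, and Umod was bright (mean 10070.5). Phex was dim, from 11.5 to 106 over all arrays, and so does not check the Hyp labels. For diet averaged over genotypes, 8 of 9 endothelial markers were lower on low phosphate (median -0.12, 0 called), and their summed intensity had a median of 7984 in normal control and 6682 in normal low phosphate arrays. Of 9 fibroblast markers 6 were lower (1 called), of 4 collecting duct markers 3 (1 called) and of 12 proximal tubule markers 4 (2 called lower and 1 higher). For genotype averaged over diets all 12 proximal tubule markers were lower in Hyp (median -0.12, 1 called). Of 8 macrophage and T cell markers 7 were higher in Hyp (median 0.20, 0 called), as were 3 of 5 B and plasma cell markers (median 0.21, 0 called), cells in which Xbp1 is high. In the thick ascending limb and distal tubule list 5 of 8 were higher (2 called higher and 1 lower), and in the collecting duct list 3 of 4 (1 called). The part of these cells in the Manf and Xbp1 differences was not tested.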

How the data were processed

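Kidney RNA was measured on 20 arrays. The deposited intensities are 1 linear value per probe set and array, which the authors had scaled to a common mean after trimming (500.254 to 500.309 with 2% trimmed at each end); the software behind this was not given in the sources used here. Depth and detection calls are not part of these values, so the number of arrays limits the precision. No pair of arrays was identical.

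Of 12488 probe sets, 66 controls were left out and 10833 of the rest name 1 gene in the platform annotation; 10817 of these matched RefSeq by gene number. To each value 37.7, the 20th percentile of the table, was added before log2, and probe sets below the 30th percentile of mean intensity were dropped, leaving 8695. limma 3.58.1 in R 4.3.3 was fitted to all 20 arrays with the 4 groups and 4 strata of sex and days (13 residual degrees of freedom), or with group by days and sex within days (10). Two-sided p-values were adjusted by Benjamini-Hochberg in each of 13 comparisons, and they measure the spread between pools of 3 mice, which the labels do not say were independent. The fits were checked on simulated log2 values with a planted diet change and independent noise. That check did not cover the offset, the filter, the genotype, days and sex contrasts, or shifts between array sets.

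Named genes are the 6 members, list genes past the threshold in a diet or genotype comparison (otherwise up to 3 per list with the smallest p for diet in normal mice), and the 10 genes most like the mean member. Members, lists and comparisons were chosen with earlier results of these data known. Alternatives were the offset, scaling, filter, moderation, covariates, array set as a block, array weights, subsets of arrays and each array left out.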

Additional observations from a re-analysis of the deposited data

Results flagged for a closer look

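Calr stood apart in 2 groups of 5: in Hyp mice on control diet array 09 gave 20.3 while the other 4 lay at 5.7 to 6.6, and in Hyp mice on low phosphate diet array 10 gave 36.7 while the others lay at 12.4 to 18.4. Of 24 groups examined 2 held such a value, and chance gives about 5%. Both values are far below the filter intensity.

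For 2 genes the genotype difference had the opposite sign at 3 and 5 days in every array set, a contrast that was not tested for each diet. For Hsp90b1 the difference, Hyp minus normal, was 0.42 higher at 5 than at 3 days on control diet and 0.46 higher on low phosphate diet. For Pdia4 on control diet it changed by -0.43. Averaged over diets, limma's test of genotype by days gave 0.38 for Hsp90b1 and -0.78 for Pdia4 (adjusted p = 0.92 for both), and 0 of 5 members passed beside 0% of all probe sets, with 3 members and 425 probe sets at an unadjusted p under 0.05.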

How the results depend on the processing

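Results were refitted under 15 other settings and with each of 20 arrays left out. Of the 5 members, the number passing for diet in normal mice was 0, and it was 1 with an offset of 100, the filter at the median, trend and robust variances, a block for array set, without arrays 05 to 08 or with array weights; leaving out arrays gave 0 to 1. For diet averaged over genotypes it was 1, and 0 without terms for sex and days, in males only, in females only or without arrays 08 and 10 (added after the data were seen), and 2 with a block for array set; leaving out arrays gave 0 to 2. For diet at 5 days it was 0, and 1 with an offset of 100, trend and robust variances or a block for array set; leaving out arrays gave 0 to 1. For genotype averaged over diets it was 1, and 0 without terms for sex and days, in males only, in females only or without arrays 05 to 08; leaving out arrays gave 0 to 1. For genotype on low phosphate diet it was 0, and 1 with array weights. For sex it was 1, and 2 with an offset of 100, the filter at the median, trend and robust variances, a block for array set or array weights; leaving out arrays gave 1 to 2. The cause was not tested.

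Signs turned for some estimates, none of which passed the test. Hsp90b1 for days gave -0.018 with array weights and -0.032 without arrays 08 and 10 (-0.030 to 0.088 leaving out arrays), and its interaction -0.089 without arrays 08 and 10 (-0.037 to 0.15). The Hspa5 interaction was -0.14 in females only. Manf for genotype on control diet gave -0.12 in males only, -0.16 without arrays 05 to 08 and -0.049 with array weights (-0.24 to 0.13). Pdia4 gave 0.093 in females only and 0.00875 with array weights for diet in normal mice (-0.23 to 0.21), -0.016 to 0.081 leaving out arrays for diet at 3 days, 0.13, 0.16 and 0.12 blocked on array set, in females only and with array weights for genotype on control diet (-0.20 to 0.16), and 0.080 with array weights and 0.0022 without arrays 08 and 10 for sex (-0.12 to 0.049). Every setting kept the sign of the averaged Manf diet difference and of the averaged Xbp1 genotype difference. Groups share no replicate number, so pairing rests on the array sets, as differences within a set and as the block for array set.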
